A study of Homo sapiens with 8 samples.

Results

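The open chromatin nearest the chromosome ends of the human line H1650, derived from a non-small cell lung cancer, was examined by ATAC-seq, in which a transposase inserts adapters into accessible DNA. Subtelomeric regions were defined by position alone: overlapping or touching peaks of all 8 libraries were merged, and the rule kept those regions that lay wholly within 1 Mb of either end of chromosomes 1 to 22 in hg19. This rule gave 1050 of 46665 regions (2.25%), and it used no measured value other than that a peak was listed. No region straddled the 1 Mb line.

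The 4 groups had 2 libraries each and shared 1 cell line. The siMena11a cells were transfected with a mix of 3 siRNAs that match exon 11a of hMENA, the siMena cells with a pool directed at every form of hMENA, and the siControl cells with a non-targeting pool, all at 20 nmol/L with a lipid reagent, and the untreated cells had no transfection. The protein hMENA, product of the gene ENAH, regulates actin filaments, and hMENA11a is an isoform found in epithelial cells. Nothing in the labels says that the 2 libraries of a group came from separate cultures, so every p below covers the spread between these libraries only. The knockdown acts on mRNA, and a peak list holds no check of it.

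Human chromosomes end in tandem TTAGGG repeats that are bound by the shelterin proteins. Inside them lies the subtelomere, a mosaic of duplicated blocks that several ends share, with gene families such as WASH, OR4F and TUBB8, followed by single-copy DNA that is rich in genes at some ends. The hg19 sequence begins or stops at an unsequenced gap at most ends, and the short arms of the acrocentric chromosomes 13, 14, 15, 21 and 22 are largely not assembled in it. Reads from a duplicated block can be placed at more than one end, and the sources used here do not state how such reads were treated, so a region in such a block may stand for more than 1 place in the genome.

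The lists differed widely in length, from 1020 peaks in siMena replicate 2 to 35472 in siMena11a replicate 1. Depth, read from the lowest local background in a list, was 0.538 to 0.935 tags per position in the replicate 1 libraries and 1.09 to 2.88 in the replicate 2 libraries. The 3 transfected replicate 2 libraries combined the highest background with the shortest lists, so results are also given by replicate number.

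Subtelomeric regions were found at 39 of the 44 chromosome ends. The number per end was 26.9 ± 10.1 (SD, n = 39 ends), with a median of 25 and a range of 4 to 47. The 5 ends with most regions were 16p with 47, 19q with 47, 16q with 44, 20q with 43 and 8q with 42, which together held 223 regions (21.2%). The RefSeq annotation, in assembly GRCh38.p14, places the alpha-globin genes, which encode the alpha chains of haemoglobin, at the tip of 16p and many zinc finger genes at the tips of 19q and 8q. It also places several zinc finger genes at the tips of 12q, with 32 regions, and 4p, with 20. No region was assigned to a gene here. The fewest regions, 4, lay at 3p, where the neural adhesion genes CHL1 and CNTN6 are among the outermost genes in RefSeq. Only the order of genes was read, so whether either lies within the outer 1 Mb was not examined.

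The 5 ends without a region were 13p, 14p, 15p, 21p and 22p, the largely unassembled short arms, where the first listed region lay 9.54 to 20.2 Mb from the start of the sequence. The 17 short-arm ends with regions held 403 (median 22 per end), and the 22 long-arm ends held 647 (median 27.5). The ends therefore differed widely in number, and the acrocentric short arms contributed none.

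**Figure D1:**
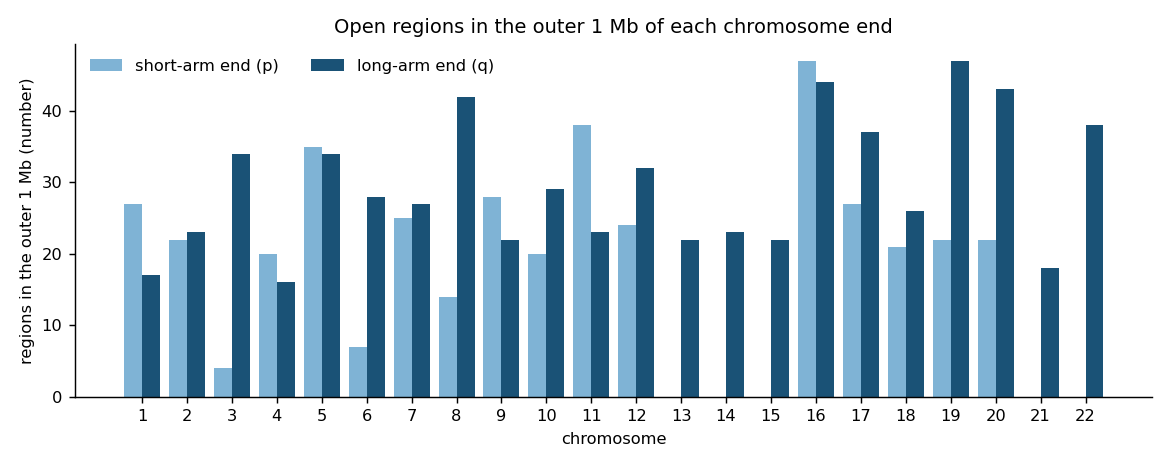
Number of open regions in the outer 1 Mb (y axis) at the short-arm and long-arm end of chromosomes 1 to 22 (x axis), counted over the merged lists of all 8 libraries. The ends 16p and 19q are highest with 47 regions each, 3p has 4, and the 5 acrocentric short arms have none.

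The outer 1 Mb was denser in open regions than the rest of the same chromosomes. It made up 1.53% of chromosomes 1 to 22 and held 23.9 regions per Mb, against 15.6 per Mb in the rest. Open regions covered 1.20% of the outer 1 Mb, against 0.731% of the rest. In siMena11a replicates 1 and 2 the density was 18.3 and 2.45 subtelomeric regions per Mb, against 11.6 and 0.888 per Mb elsewhere. In siMena it was 7.23 and 2.00 per Mb, against 4.72 and 0.275. In siControl it was 13.3 and 3.23 per Mb, against 8.85 and 1.67. In untreated cells it was 16.1 and 9.05 per Mb, against 11.3 and 7.25.

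All 8 libraries were thus denser near the ends. The mean log2 difference was 1.00 ± 0.83 (SD, n = 8 libraries), a 1.99-fold density (two-sided exact sign-flip permutation p = 0.0078, the smallest that 8 libraries allow, Benjamini-Hochberg adjusted p = 0.039 over 10 tests). The median over libraries was lower, at 0.63, and siMena replicate 2, the shortest list, had the largest difference, 2.86. When every list was shortened to its 1020 strongest peaks, the mean was 0.83, the exact permutation p was 0.117, and siControl replicate 1 at −0.25 and untreated replicate 2 at −0.78 were less dense near the ends than elsewhere. The higher density near the ends was therefore not seen in these 2 libraries among the strongest peaks. Their values rest on 13 of 1018 listed regions in siControl replicate 1 and 9 of 1019 in untreated replicate 2. Such small counts were not tested against an equal density.

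Each distance window was counted in full at all 44 ends, unsequenced gaps included. Counted so over the merged lists, the density was highest from 250 kb to 1 Mb and lower further in. Density per Mb of sequence was not computed, so the rank of the outermost 20 kb is not settled. The density was 23.9 regions per Mb in the outermost 20 kb, 21.3 from 20 to 100 kb, 18.6 from 100 to 250 kb, 24.5 from 250 to 500 kb and 25.5 from 500 kb to 1 Mb. From 1 to 2 Mb it was 21.3, from 2 to 5 Mb 17.1, from 5 to 10 Mb 16.3 and from 10 to 20 Mb 17.1 regions per Mb. Within single libraries the outermost 20 kb, with 10 to 17 listed regions each, was the densest window in all but siMena11a replicate 1. That library had 19.3 per Mb there, against 19.6 from 500 kb to 1 Mb. In replicate 2 of siMena11a, siMena, siControl and untreated cells the outermost 20 kb had 13.6, 12.5, 14.8 and 13.6 per Mb. From 500 kb to 1 Mb these libraries had 2.32, 1.73, 3.00 and 8.95. Against the next 1 Mb inwards alone, the density of the outer 1 Mb was higher in all 8 libraries, by a mean log2 of 0.39 (exact sign-flip permutation p = 0.0078). Counted by end over the merged regions, 21 of the 39 ends had more regions in the outer 1 Mb than in the next, and 18 had fewer.

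**Figure D2:**
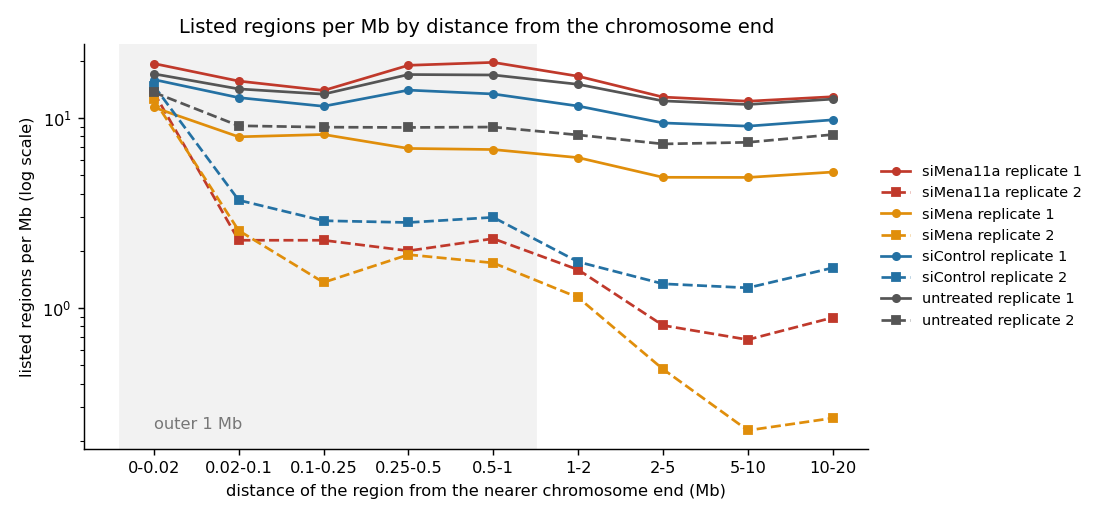
Listed regions per Mb (y axis, log scale) in each of the 8 libraries by distance from the nearer chromosome end in Mb (x axis), with the outer 1 Mb shaded. Each window is counted in full at all 44 ends, unsequenced gaps included. The 8 libraries lie between 11.4 and 19.3 regions per Mb in the outermost 20 kb, and siMena replicate 2 has 0.227 per Mb at 5 to 10 Mb, against 12.2 in siMena11a replicate 1.

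At the 1 Mb line itself, the 3 regions just inside were 2 neighbours on 4q, from 190154689 to 190155891 and from 190156054 to 190156653, both listed in all 8 libraries, and a region of 1p from 999566 to 999871 listed in untreated replicate 2 alone at a fold of 4.42. The 3 just outside were a region of 19q from 58125378 to 58125741 listed in the 4 replicate 1 libraries, and single-library regions of 1p from 1004493 to 1004692 and of 4p from 1004531 to 1004791. The nearest region outside lay 1003.2 kb from its end.

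Each peak carries a fold, which the authors' caller computed as tags at the summit over local background. Its median over subtelomeric regions in replicates 1 and 2 was 6.03 and 4.57 in siMena11a, 5.77 and 4.46 in siMena, 5.80 and 4.47 in siControl, and 6.80 and 5.62 in untreated cells. Over all other regions it was 6.64 and 4.67 in siMena11a, 6.11 and 4.30 in siMena, 6.50 and 4.95 in siControl, and 6.99 and 6.22 in untreated cells. The subtelomeric median was thus lower in 7 of 8 libraries, siMena replicate 2 being the exception. The mean log2 difference of −0.09 ± 0.08 (SD, n = 8 libraries) had an exact sign-flip permutation p of 0.031 and did not pass after adjustment over 10 tests (adjusted p = 0.078).

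Subtelomeric regions were wider once merged, with a median of 435.5 bp (range 200 to 1766 bp), against 393 bp for the rest. Their median was also larger at each number of listing libraries from 1 to 7. Among regions listed in all 8 it was smaller, 724.5 bp against 948.5 bp. Within libraries the median width of subtelomeric peaks was larger in 7 of 8, by a mean log2 of 0.07 ± 0.07 (SD, n = 8), which did not pass after adjustment either (exact permutation p = 0.023, adjusted p = 0.078).

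The local background under subtelomeric regions stood higher. It was recovered from the fold and the −log10 p of each summit, and is given in multiples of the lowest background in the list. In siMena11a replicates 1 and 2 the median multiple was 2.75 and 2.24 at subtelomeric regions, against 2.16 and 1.43 elsewhere. In siMena it was 2.62 and 2.34, against 2.10 and 1.58. In siControl it was 2.54 and 2.07, against 2.07 and 1.41. In untreated cells it was 2.82 and 2.11, against 2.23 and 1.91.

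The background was thus higher near the ends in 8 of 8 libraries, by a mean log2 of 0.40 ± 0.17 (SD, n = 8), or 1.32-fold (exact sign-flip permutation p = 0.0078, adjusted p = 0.039 over 10 tests). Against the next 1 Mb inwards the direction turned, with a mean log2 of −0.14 (exact permutation p = 0.0078). The fold divides the summit by this background, and the part of the background in the lower subtelomeric folds was not tested.

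Most subtelomeric regions were found in few libraries, as elsewhere. A single library listed 314 of them (29.9%), against 14256 of the other regions (31.3%), and 22 (2.10%) were listed in all 8 libraries, against 520 others (1.14%). Over all 46665 regions the share listed in all 8 was 1.16%. The wide range of list lengths bounds these counts, since siMena replicate 2 alone listed 88 subtelomeric regions.

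The 22 regions lay at 17 ends and were most frequent at the very tip. In the outermost 20 kb, 8 of 21 regions (38.1%) were listed in all 8 libraries, against 4 of 75 (5.33%) from 20 to 100 kb, 4 of 123 (3.25%) from 100 to 250 kb and 3 of 562 (0.534%) from 500 kb to 1 Mb. In the outermost 20 kb the replicate 2 libraries made 48 listings and the replicate 1 libraries 56 (85.7%). From 20 to 100 kb they made 62 and 178 (34.8%), and from 500 kb to 1 Mb 352 and 1245 (28.3%). The short lists thus came close to the long ones at the tip alone, and from 2 to 20 Mb the ratio was 25.2% to 27.1%.

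The 8 regions of the tip sat in a narrow band. All but 1 of the 21 regions of the outermost 20 kb lay 9.9 to 11.8 kb from the end, counting the unsequenced gap. The exception was the outermost region of all, on chromosome 17 from 81194903 to 81195131, 0.1 kb from the end of 17q, where siMena11a replicate 1 gave a fold of 5.32 and siControl replicate 1 one of 6.20, and it was listed in no other library.

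The region with the highest fold rank was on chromosome 12 from 133841459 to 133841975, 9.9 kb from the end of 12q. Its fold was 12.4 and 16.7 in siMena11a replicates 2 and 1, 9.80 and 16.1 in siMena, 12.9 and 13.3 in siControl, and 15.1 and 15.7 in untreated cells. It was high in every library, and siMena replicate 2 was the lowest.

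The next was on chromosome 21 from 47604253 to 47604790, 525.1 kb from the end of 21q. Its fold was 6.95 and 18.0 in siMena11a replicates 2 and 1, 6.67 and 14.8 in siMena, 8.25 and 15.7 in siControl, and 17.9 and 22.4 in untreated cells. The 3 transfected replicate 2 libraries stood apart below the other 5.

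The longer 4q region at the 1 Mb line had folds of 9.68 and 10.1 in siMena11a replicates 2 and 1, 9.54 and 11.0 in siMena, 11.0 and 10.3 in siControl, and 12.2 and 11.9 in untreated cells. Its folds were nearly level over libraries, and the local background under it was 4.61 to 5.98 times the lowest of the list in all 8. The shorter neighbour had folds of 5.08 to 7.65.

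At 3 other tips the replicates differed to varying degrees. The region of 1q from 249239794 to 249240626, 10.0 kb from the end, had folds of 8.84 and 9.72 in siMena11a replicates 2 and 1, 7.01 and 6.86 in siMena, 7.49 and 8.37 in siControl, and 8.59 and 8.41 in untreated cells. The region of 1p from 9939 to 10567 had 5.13 and 9.17 in siMena11a, 5.56 and 6.92 in siMena, 6.59 and 6.89 in siControl, and 10.4 and 8.63 in untreated cells. The region of 18p from 9986 to 10664 had 5.93 and 9.06, 3.92 and 6.34, 5.30 and 6.29, and 6.86 and 6.67 in the same order of groups. Replicate 2 was the lower siMena11a library at all 3, whereas it was the higher untreated one.

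The region of 7p from 9911 to 10329 had folds of 6.49 and 12.8 in siMena11a replicates 2 and 1, 5.16 and 5.22 in siMena, 7.65 and 7.23 in siControl, and 9.57 and 11.9 in untreated cells. Its local background was the lowest of the list in 7 libraries and 1.11 times that in untreated replicate 1, whereas the region of 5p from 10039 to 11804 had 3.52 to 14.5 times the lowest background and folds of 4.49 to 5.70.

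The remaining regions of the 12 with the highest fold ranks lay on 12p from 95151 to 95787 (folds of 7.25 to 11.4), 2p from 263878 to 265245 (3.69 to 11.6), 12q from 133484735 to 133485643 (3.49 to 12.8) and 1q from 249167683 to 249168744 (4.25 to 8.36). At these 4, siMena11a or siMena replicate 2 gave the lowest fold and untreated replicate 1 the highest.

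**Figure D3:**
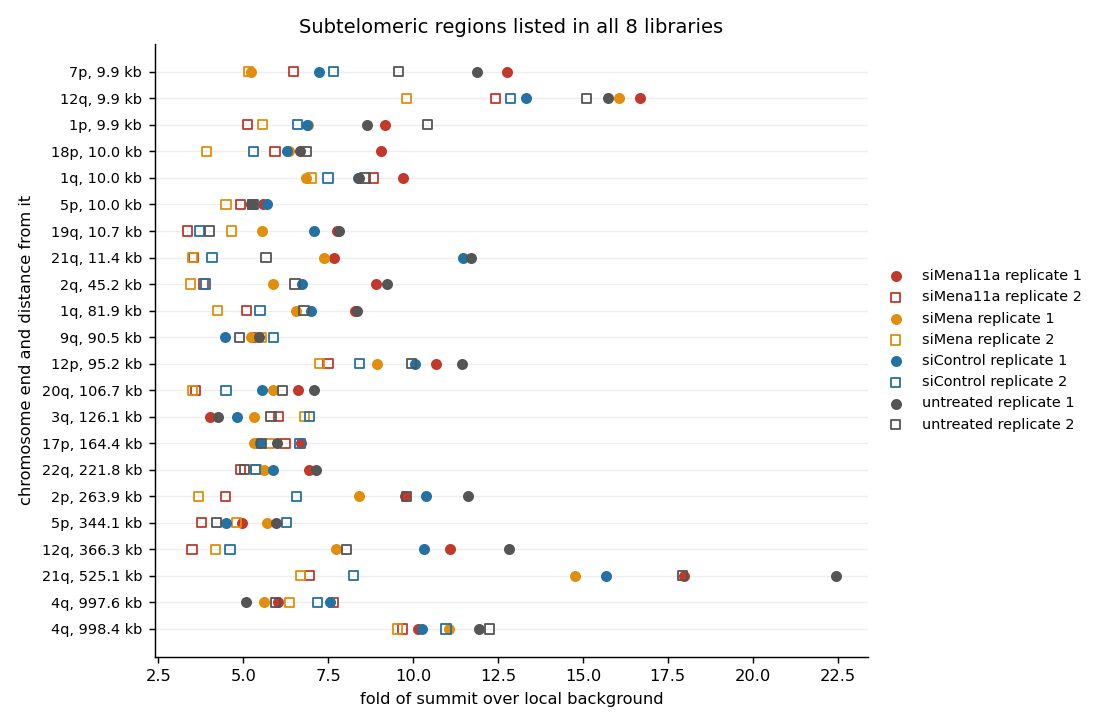
Fold of the summit over local background (x axis) in each library at the 22 subtelomeric regions listed in all 8 libraries, ordered by distance from the chromosome end (y axis). The region of 12q at 9.9 kb has folds of 9.80 to 16.7, and the region of 21q at 525.1 kb has 6.67 in siMena replicate 2, against 22.4 in untreated replicate 1.

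The regions listed in 7 libraries showed which list was short of them. Of the 19 such subtelomeric regions, 9 lacked siMena replicate 2 (47.4%), against 1388 of 1465 other regions (94.7%) and 94.1% over all regions listed in 7. Untreated replicate 1 was the missing list for 8 of the 19 (42.1%), against 23 of 1465 others (1.57%) and 2.09% over all. Untreated replicate 1 had the second longest list and the lowest background of the 8 libraries, 0.538 tags per position, and the part of depth in its missing regions was not tested. The 8 regions lay at 10p, 16p, 17p, 20q, 5q and 9q, with 2 each at 16p and 17p, and in the 7 lists that held them their folds were 3.86 to 9.58.

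Patterns over the replicate numbers came next. All 3 transfected replicate 2 libraries listed 67 subtelomeric regions (6.38%), against 702 others (1.54%) and 1.65% of all regions. Of these, 10 subtelomeric regions (0.952%) and 67 others (0.147%) were in no replicate 1 library, against 0.165% of all regions. All 4 replicate 2 libraries listed 41 subtelomeric regions (3.90%), against 599 others (1.31%) and 1.37% of all. By contrast all 4 replicate 1 libraries listed 280 subtelomeric regions (26.7%), against 12593 others (27.6%) and 27.6% of all. Of these, 46 (4.38%) were in no replicate 2 library, against 1901 others (4.17%) and 4.17% of all, and the opposite pattern, at least 1 replicate 2 library and no replicate 1 library, was held by 74 (7.05%), against 3155 others (6.92%) and 6.92% of all. No subtelomeric region was listed in all 6 transfected libraries and neither untreated one, a pattern that 4 regions of the whole set had (0.00857%).

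Replicates of a group were compared by the fold of replicate 2 over that of replicate 1 at regions listed in both. In siMena11a the median ratio was 0.707 at 59 subtelomeric regions, against 0.488 at 2386 others. In siMena it was 0.862 at 40 subtelomeric regions, against 0.536 at 648 others. In siControl it was 0.707 at 90 subtelomeric regions, against 0.576 at 4514 others. In untreated cells it was 0.701 at 337 subtelomeric regions, against 0.799 at 17026 others. The fold of replicate 2 was the lower one in every group, less so near the ends in the 3 transfected groups and more so in untreated cells.

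The difference in median log2 ratio, subtelomeric minus other, was 0.54 in siMena11a, 0.69 in siMena, 0.30 in siControl and −0.19 in untreated cells. Its mean of 0.33 ± 0.38 (SD, n = 4 groups) had an exact sign-flip permutation p of 0.25 (adjusted p = 0.5), where 4 groups allow no p below 0.13. The folds of replicate 1 differed as well, with medians at these regions of 6.94 near the ends and 10.0 elsewhere in siMena11a, 5.71 and 8.61 in siMena, 7.39 and 9.01 in siControl, and 8.33 and 8.31 in untreated cells. With the other regions weighted to the same replicate 1 folds, an alternative chosen after seeing the data, the differences were 0.09, 0.27, 0.07 and −0.19 in the same order (mean 0.06, exact permutation p = 0.625). With every list shortened to 1020 peaks, only 2, 6, 7 and 6 subtelomeric regions were listed in both replicates, and the differences were 0.028, 0.18, −0.043 and 0.022 (mean 0.046, exact permutation p = 0.5). Over the 22 subtelomeric and 520 other regions listed in all 8 libraries they were 0.31, 0.68, 0.49 and 0.00076.

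**Figure D4:**
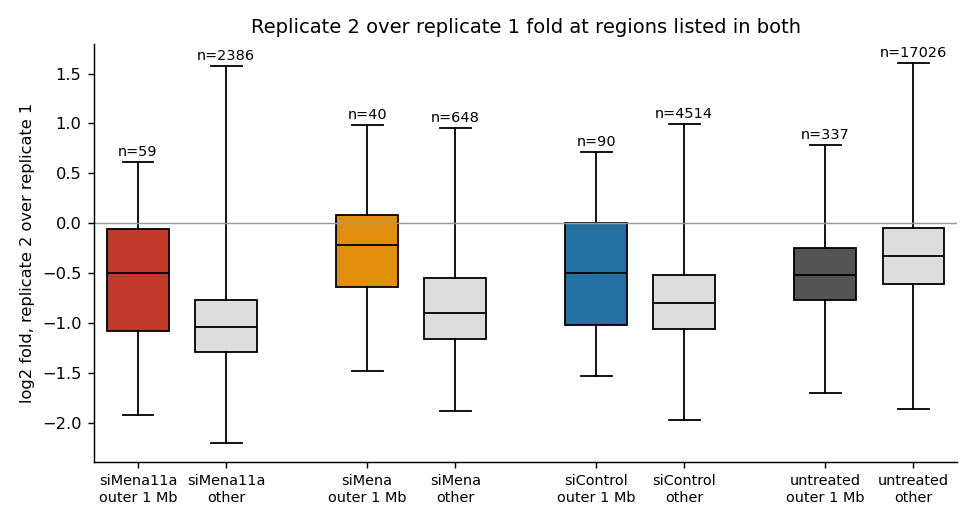
Log2 of the replicate 2 fold over the replicate 1 fold (y axis) at regions listed in both replicates, in each group, for the outer 1 Mb and for other regions. Boxes span the quartiles with the median as a line, whiskers reach the extremes, and n is the number of regions; the subtelomeric median is −0.21 in siMena, against −0.90 elsewhere, and −0.51 in untreated cells, against −0.32 elsewhere.

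Replicate 2 had the higher fold at 14 of the 59 subtelomeric regions in siMena11a (23.7%), against 3.23% of all regions listed in both replicates. In siMena it was higher at 12 of 40 (30.0%), against 7.7% of all, and in siControl at 23 of 90 (25.6%), against 3.78%. In untreated cells it was higher at 40 of 337 (11.9%), against 21.4%. Among the 31 subtelomeric regions listed in all 6 transfected libraries, replicate 2 was higher in all 3 transfected groups at 4 (12.9%), against 2.92% of all such regions. These 4 lay at 17p, 3q, 5q and 9q.

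The region of 3q from 197895441 to 197896286 was higher in replicate 2 in all 4 groups. Its fold was 6.03 and 4.03 in siMena11a replicates 2 and 1, 6.81 and 5.30 in siMena, 6.96 and 4.81 in siControl, and 5.81 and 4.25 in untreated cells, which gives ratios of 1.49, 1.28, 1.45 and 1.37. Its 4 replicate 2 folds all lay above its 4 replicate 1 folds.

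Further regions had high ratios in some of the groups. The region of 7p from 20216 to 20550 had the highest ratio in siMena, with a fold of 8.56 in replicate 2 and 4.33 in replicate 1 (1.98). The region of 3q from 197186336 to 197186886 had 10.4 and 6.16 in siMena replicates 2 and 1 (1.69) and 11.7 and 7.41 in siControl (1.58), and it was not listed in siMena11a replicate 1 or untreated replicate 1. In siMena11a the highest ratios were 1.53 at 17p from 855378 to 856162 and 1.52 at 5q from 180472758 to 180473336, and neither was listed in untreated replicate 1. In siControl the region of 2p from 306773 to 307100 led with 7.67 and 4.67 (1.64).

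At the lowest ratio of each group the replicate 1 fold was 8.06 to 15.2. The region of 9p from 764046 to 764476 had 4.02 in siMena11a replicate 2 and 15.2 in replicate 1 (0.264), and it was missing from the replicate 2 lists of siMena and siControl. The region of 5p from 271077 to 271960 had 2.89 and 8.06 in siMena (0.358). The region of 7q from 158497294 to 158498109 had 4.13 and 11.9 in siControl (0.347). In untreated cells the lowest was on 8q from 145437375 to 145438225, with 3.59 and 11.7 (0.308).

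Replicate 2 listed 7.35% of the subtelomeric replicate 1 regions in siMena11a, against 7.02% of all replicate 1 regions. The same shares were 12.6% and 4.88% in siMena, 15.4% and 17.4% in siControl, and 47.5% and 51.4% in untreated cells. Against the other regions alone, the mean difference of 0.571 percentage points (SD 5.17, n = 4 groups) did not exceed the spread between groups (exact sign-flip permutation p = 0.875, adjusted p = 0.972). In the opposite direction, replicate 1 listed 54.6% of the subtelomeric replicate 2 regions in siMena11a, against 89.8% of other replicate 2 regions. In siMena the shares were 45.5% and 71.3%, in siControl 63.4% and 91.6%, and in untreated cells 84.7% and 80.1%. In the 3 transfected groups the share found in replicate 1 was lower near the ends than elsewhere, and this difference was not tested.

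The groups were then compared by the subtelomeric share of their listed regions. It was 2.31% and 3.91% in siMena11a replicates 1 and 2, 2.25% and 8.83% in siMena, 2.2% and 2.80% in siControl, and 2.10% and 1.84% in untreated cells. The share of 8.83% in siMena replicate 2 had a 95% Clopper-Pearson interval of 7.14% to 10.8%, which covers counting error over regions only. The 4 replicate 1 libraries lay within 2.10% to 2.31%, whatever the transfection, and the 3 transfected replicate 2 libraries were the 3 highest. Among the shortened lists of 1020 peaks the shares of these 3 were 5.57% in siMena11a, 8.83% in siMena and 3.75% in siControl, against 0.883% to 2.16% in the other 5.

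The knockdown of the 11a isoform, siMena11a, was set against siControl first. The share averaged 3.11% ± 1.13 in siMena11a and 2.50% ± 0.42 in siControl (SD, n = 2 each). The difference of 0.605 percentage points had an exact permutation p of 0.667 (adjusted p = 0.833), where 2 libraries against 2 allow no p below 0.33. Within replicate 1 the difference was 0.101 points and within replicate 2 it was 1.11 points.

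For the knockdown of all isoforms, the share averaged 5.54% ± 4.65 in siMena and 2.50% ± 0.42 in siControl (SD, n = 2 each), a difference of 3.04 points (exact permutation p = 0.667, adjusted p = 0.833). It rested on siMena replicate 2: within replicate 1 the difference was 0.0492 points, and within replicate 2 it was 6.03 points. Without siMena replicate 2 it was −0.248 points. Between the knockdowns, siMena11a averaged 3.11% ± 1.13 and siMena 5.54% ± 4.65 (SD, n = 2 each), a difference of −2.43 points (exact permutation p = 1), with 0.0521 points within replicate 1, −4.92 within replicate 2 and 0.853 without siMena replicate 2.

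Transfection alone was compared through siControl and untreated cells. The share averaged 2.50% ± 0.42 in siControl and 1.97% ± 0.18 in untreated cells (SD, n = 2 each), a difference of 0.535 points (exact permutation p = 0.33, adjusted p = 0.556). Both siControl libraries lay above both untreated ones, which is the extreme order that this design allows, with 0.107 points within replicate 1 and 0.962 within replicate 2.

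Single regions were compared by their presence in lists: a region was counted as gained if both libraries of the first group listed it and neither of the second did, and as lost in the opposite case. Such counts carry no test for a region. Of the 1050 subtelomeric regions, siMena11a gained 1 against siControl (0.0952%), against 0.0279% of all regions, and lost 0, against 0.0557% of all. The gained region lay on 11p from 975416 to 975686, with folds of 5.10 and 5.32 in siMena11a replicates 2 and 1, and it was also listed in siMena replicate 2 at 3.70. It was in neither untreated library.

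Against siControl, siMena gained 0 subtelomeric regions, against 0.00214% of all, and lost 3 (0.286%), against 1.03% of all. The region of 15q from 102521117 to 102521452, 9.9 kb from the end, was listed in 6 libraries, with folds of 4.50 and 8.01 in siMena11a replicates 2 and 1, 4.60 and 4.90 in siControl, and 4.96 and 8.47 in untreated cells. The region of 3p from 954393 to 954784 had 4.93 and 8.78 in siMena11a, 3.97 and 4.08 in siControl, and 6.77 and 5.31 in untreated cells. Both were missing from both siMena lists alone, which were the shortest of their replicate numbers. The region of 20p from 328283 to 329012 was also missing from siMena11a replicate 2.

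Against siMena, siMena11a gained 4 subtelomeric regions (0.381%), against 0.24% of all, and lost 0, against 0.00643% of all. They included the 15q and 3p regions just described. The other 2 lay on 3q from 197900657 to 197900980, with folds of 4.43 and 6.96 in siMena11a replicates 2 and 1, and on 11p from 642640 to 642956, with 6.02 and 5.61. The 11p region was listed elsewhere in siControl replicate 2 alone, at 7.91.

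Against untreated cells, siControl gained 10 subtelomeric regions (0.952%), against 0.12% of all, and lost 22 (2.10%), against 3.65% of all. All 10 gained regions were also listed in siMena11a replicate 2 and siMena replicate 2, 4 of them in siMena11a replicate 1 and 1 in siMena replicate 1. Of the 22 lost regions, 17 were listed in siMena11a replicate 1 and 5 in siMena replicate 1, but 0 in either replicate 2 library. By definition the lost regions were missing from siControl replicate 2, which listed 5072 regions, against 2764 in siMena11a replicate 2 and 997 in siMena replicate 2. Of the subtelomeric regions of these 2 shorter lists, 84.3% and 81.8% were also in siControl replicate 2. The same counts over all gained and all lost regions were not computed, so no pattern particular to subtelomeric regions is read from them.

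Among the gained regions, that of 10p from 463676 to 464231 had folds of 4.78 and 6.94 in siControl replicates 2 and 1, and that of 16p from 508343 to 508667 had 8.33 and 6.60. The others named were on 20q from 62719900 to 62720264, 5p from 628484 to 628968 and 7p from 297632 to 298007, with siControl folds of 3.25 to 4.69. Among the lost regions, that of 6q from 170534502 to 170534925 was listed at 7.27 and 8.18 in untreated replicates 2 and 1 and at 8.23 in siMena11a replicate 1. The others named were on 2p from 424747 to 425132, 18q from 77720262 to 77720505, 14q from 107119906 to 107120341 and 5p from 47396 to 47842, with untreated folds of 5.28 to 9.75. The 18q region was the one of these 5 that no transfected library listed.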

How the data were processed

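ATAC-seq peak lists of 8 libraries, 1 per library, were used as deposited, so replicates were not pooled. Per the submitters' processing notes, the build was hg19 and the tools were MACS2 2.2.5, SAMtools 1.7, Bowtie2 2.3.4.2 and FastQC 0.11.5. Trimming, duplicate removal, the shift for the transposase offset and the treatment of reads that match several places are not given in the sources used here. The lists had been sorted and, by their names, filtered against a blacklist: 363 to 594 peak numbers were skipped in each list, of which 4 to 19 lay between listed peaks of the same end, and where the skipped peaks lay is not recorded.

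The authors deposited for each summit a score, which equals the −log10 q times 10 and cut to a whole number in at least 99.98% of entries, a fold, which is the ratio of pileup plus 1 to local background plus 1, the −log10 p, the −log10 q and the summit offset. The lowest −log10 q was 2.00 to 2.02, which puts the threshold of the lists at q = 0.01. The files give no read totals. Pileup and local background were recovered from fold and −log10 p by inverting the caller's Poisson p, within 0.001 for 100.0% of entries. The lowest background of a list is its genome-wide mean of tags per position, used here as depth.

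A region counted as listed in a library when 1 bp or more of it lay under a peak, and the value of a region was that of its highest summit. Distances run from the nearer edge of a region to the end of the hg19 chromosome, and coordinates count from 1. Libraries (8) or groups (4) were compared with themselves by a two-sided exact sign-flip permutation, and groups of 2 libraries by an exact permutation over libraries, with Benjamini-Hochberg adjustment over 10 tests. The test of local background was added after seeing the data. The code was tested on simulated data. The software was matplotlib 3.10.9, SciPy 1.17.1, pandas 2.3.3 and numpy 2.4.6 under Python 3.11.15.

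The members, comparisons and rules were chosen with earlier results of these data known. Regions were named by rule: the 5 ends with most regions and the ends with none, up to 12 regions listed in all 8 libraries by fold rank, up to 5 gained and 5 lost in each comparison by score, the 3 highest and 3 lowest replicate ratios per group and the outermost region. Regions named for their place at the tip, their missing list or a ratio above 1 in all groups were chosen after their values were seen. No hg19 sequence or annotation was used here, so genes at regions, motifs and sequences were not analysed here, nor were the gene lists set for them (interferon, epithelial and subtelomeric families). Alternatives were windows of 0.5 and 2 Mb, a score of at least 87, lists of equal length, peaks covering 50% of a region, means, other reference regions, the tip left out, each library left out and the replicate number as a block.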

Additional observations from a re-analysis of the deposited data

Results flagged for a closer look

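Over all regions listed in both replicates, the replicate ratio near the ends differed in sign between groups. The log2 fold of replicate 2 over replicate 1 at subtelomeric regions, minus that at other regions, was 0.54 in siMena11a, 0.69 in siMena and 0.30 in siControl, and it was −0.19 in untreated cells. The difference between the transfected and untreated groups was not tested. It depended on the regions compared. With other regions weighted to the same replicate 1 folds the values were 0.09, 0.27, 0.07 and −0.19 in the same order, and over regions listed in all 8 libraries they were 0.31, 0.68, 0.49 and 0.00076. With lists shortened to equal length, which left 2 to 7 subtelomeric regions a group, they were 0.028, 0.18, −0.043 and 0.022.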

How the results depend on the processing

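The density of subtelomeric regions was higher in every alternative, with a range of 0.73 to 1.09 (log2) when 1 library was left out, but it missed the threshold at 0.83 with lists shortened to equal length. The local background was 0.37 to 0.44 with 1 library left out and turned to −0.14 against the next 1 Mb inwards. The fold difference was −0.107 to −0.076 with 1 library left out and 0.019 against the next 1 Mb, and its unadjusted exact permutation p was 0.0625 without siMena11a, siMena or siControl replicate 1 and without siControl or untreated replicate 2. The width difference was 0.06 to 0.09 with 1 library left out, and it missed an unadjusted p of 0.05 at 0.041 (2 Mb window), 0.056 (score of at least 87), 0.015 (equal length), 0.078 (means) and 0.066 (outermost 20 kb left out). The difference in replicate ratio was 0.21 to 0.51 with 1 group left out, 0.046 with lists of equal length and 0.06 with other regions weighted to the same replicate 1 folds. The difference in listing was −1.87 to 2.07 points with 1 group left out and turned to −1.67 (2 Mb), −2.55 (score), −16.0 (equal length) and −0.774 (tip left out). The cause of these changes was not tested.

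The differences in share ranged over −0.196 to 1.41 points for siMena11a against siControl, −0.248 to 6.32 for siMena against siControl, 0.237 to 0.832 for siControl against untreated and −5.72 to 0.853 for siMena11a against siMena with 1 library left out. Deviations of same-numbered libraries correlated at −0.04 to 0.47 over the 6 pairs of groups. The main tests of share did not pair libraries by number, and this range does not settle whether they should. With the replicate number as a block the share differences stayed at 0.605, 3.04, 0.535 and −2.43 points in the same order, with exact permutation p values of 0.5, 0.5, 0.5 and 1, where 2 pairs allow no p below 0.5.

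Gained and lost subtelomeric regions together, 1 for siMena11a against siControl, became 0 (0.5 Mb), 0 (score), 2 (equal length) and 3 (50% cover). For siMena against siControl, 3 became 1 (equal length). For siControl against untreated, 32 became 11 (0.5 Mb), 65 (2 Mb), 10 (score) and 1 (equal length). For siMena11a against siMena, 4 became 2 (0.5 Mb), 2 (score) and 1 (equal length). These totals hide direction, which changed with lists of equal length. There siMena11a gained 0 and lost 2 against siControl, and gained 0 and lost 1 against siMena, whereas siControl gained 1 and lost 0 against untreated. With 1 library left out, so that a single list decides for its group, the 4 totals were 21 to 290, 31 to 275, 67 to 328 and 20 to 493. The short replicate 2 lists limit each of these counts.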
